A study of Mus musculus with 6 samples.

Results

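The genes described here are 34 genes that mark B lymphocytes at successive stages of their development, measured in megakaryocyte sorts from leukaemic and healthy mouse marrow. They were taken by name, with earlier results of these data known. Of the 34, 32 had a row of the array that named that gene and no other, out of 30063 genes measured in this way. A gene with several such rows is given by its brightest. Faim3 (now Fcmr) and Jchain were found under the array's older names, Faim3 and Igj. Rag1 shared its row with a neighbouring gene, and Cd38 was not analysed here.

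B cells arise in the bone marrow from lymphoid progenitors. Precursors rearrange their immunoglobulin genes with the RAG recombinase and test the new heavy chain with a surrogate light chain, under the transcription factors EBF1 and PAX5. Mature B cells carry immunoglobulin M and the signalling chains CD79A and CD79B at their surface, and plasma cells, which secrete antibody, replace this programme with one driven by PRDM1. Each of these stages can be found in healthy marrow. Megakaryocytes, the platelet-forming cells, are not known for a B cell programme.

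The study sorted megakaryocytes from the marrow of female C57 mice that carried acute myeloid leukaemia (AML) induced by MLL-AF9, a fusion oncogene, and from healthy female C57 control mice, without further treatment stated for either group. The gate took events with high side scatter, high CD41 and a DNA content of at least 8N. It used no B cell marker. Each group had 3 arrays of total RNA, called biological replicates in the labels, which give no ages or animal numbers, and p-values therefore reflect only how far these samples spread. The labels do not say how the fusion was delivered.

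Values are log2 expression values from RMA as deposited, differences are AML minus control, and an SD after ± covers a group's arrays (n = 3). A gene is called where limma's adjusted p, corrected over all 30063 genes, is under 0.05. As a rough guide to background, the 95th percentile of the mean levels of 1718 olfactory and vomeronasal receptor genes, 5.51, is called the receptor level. A gene with a mean at or below it was not shown to be above background. For a called gene above this level in control but not on all AML arrays, a lower bound of the fall is given. It is written as "at least N-fold", with AML values below the receptor level set to it. Genes that were not called get no bound.

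The sorts held the transcripts of their labelled cell type. All 13 measured megakaryocyte markers stood above the receptor level in both groups, 0 of them were called, and the 2 brightest, Ppbp and Pf4, had means between 11.98 and 12.37 in the groups. Transcripts that mark other cells were bright as well. The neutrophil markers Ngp and Retnlg had means of 11.31 and 11.11 in AML, and 12.42 and 12.17 in control. Array medians over all genes were 5.29 to 5.32 in AML and 5.16 to 5.24 in control. The median difference over all genes was therefore +0.11, and of these genes 6.25% were called lower and 4.49% called higher in AML. After each array was centred on its median, 2712 genes were called lower and 505 higher, against 1880 and 1350 as deposited.

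Upstream sequences of 5 members are given here because they stand for the stages: Vpreb1 for precursors, Cd79a and Blnk for genes used from precursor to mature cell, Fcmr for mature cells and Jchain for plasma cells. Each is the 150 bases before the transcription start from RefSeq, build GRCm38.p6, written 5′ to 3′ on the gene's strand, with searched motifs in capitals.
Vpreb1, chr16:16869256-16869405, minus strand: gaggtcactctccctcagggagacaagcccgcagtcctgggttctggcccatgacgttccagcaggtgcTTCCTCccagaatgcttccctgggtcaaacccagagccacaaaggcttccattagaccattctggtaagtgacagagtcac
Cd79a, chr7:24897347-24897496, plus strand: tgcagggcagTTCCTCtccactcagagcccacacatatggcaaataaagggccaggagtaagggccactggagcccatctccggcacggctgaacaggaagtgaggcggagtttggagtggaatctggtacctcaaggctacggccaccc
Blnk, chr19:40994222-40994371, minus strand: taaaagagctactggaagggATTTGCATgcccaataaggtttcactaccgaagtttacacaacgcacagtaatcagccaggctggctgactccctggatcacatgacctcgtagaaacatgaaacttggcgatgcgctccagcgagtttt
Fcmr, chr1:130865627-130865776, plus strand: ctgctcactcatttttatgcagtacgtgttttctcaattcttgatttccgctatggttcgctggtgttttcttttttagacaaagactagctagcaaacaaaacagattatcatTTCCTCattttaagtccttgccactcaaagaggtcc
Jchain, chr5:88527898-88528047, minus strand: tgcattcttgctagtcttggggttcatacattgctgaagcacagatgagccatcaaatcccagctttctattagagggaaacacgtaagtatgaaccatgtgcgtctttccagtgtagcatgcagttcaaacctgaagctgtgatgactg

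The motifs were the EBF core CCCNNGGG, the octamer ATGCAAAT, bound by the OCT factors that POU2AF1 assists, and the PU.1 box GAGGAA, a core bound by PU.1 and SPIB. They were searched on both strands of windows from 250 bases before to 50 bases after the start. No match overlapped a match of another motif in the windows printed. The table held windows for 27 of the 34 genes. A gene can have several windows, and these genes had 30. The PU.1 box was found in 14 of the 30 windows, each of another gene, against 28.3% of all 32851 windows in the table. It was present in 6 of the 9 called genes with a window (Cd79a, Ebf1, Fcmr, Fcrl1, Fcrla and Prdm1) and in 8 of the 16 measured genes that were not called, Vpreb1, Vpreb2, Igll1 and Rag2 among them. The EBF core was found in Bank1, Cd22, Spib, Sdc1 and Igll1, against 13.7% of all windows, and the octamer in Vpreb3 and Blnk, against 1.74%. These matches are descriptions of the letters in the windows.

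In the AML sorts, some genes of mature B cells, of the B cell receptor and of antibody secretion were lower than in control. None of the 6 genes placed in the precursor stage was called. Ebf1, Il7r and Foxo1, which also act in precursors but were placed in other lists, were called lower. Of the 32 measured genes, 13 fell and 0 rose. The largest differences on the deposited scale were those of Ighm, Jchain, Bank1 and Ikzf3, although 7 of the 13 falls, those of Jchain and Ikzf3 among them, are known only as lower bounds, which leaves their order unsettled. By stage, 0 of 6 precursor genes, 4 of 9 genes used from precursor to mature cell, 7 of 13 mature genes and 2 of 4 plasma cell genes fell. Of the precursor genes, Igll1, Rag2 and Dntt were at or below the receptor level on all arrays. The called mature genes Ms4a1 and Fcer2a were there too, and 4 of 8 mature genes were called when genes at or below that level were left out. The precursor genes Vpreb1 and Vpreb3 had control means of 5.695 and 5.759, which left little room above the receptor level for a fall. The share of all genes called lower was 6.25% and the share called higher 4.49%. The 3 AML values lay below all 3 control values in 22 of the 32 genes, against 13.1% of all genes, and above them in 2, Igll1 and Rag2, against 28.2%. Without control array 2 the members called lower numbered 8, all of them among the 13, and the plasma cell genes called numbered 0 (1 without AML array 2 or control array 3). Of the genes used throughout, 2 were called without AML array 2 or 3 or control array 1 or 2.

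**Figure D1:**
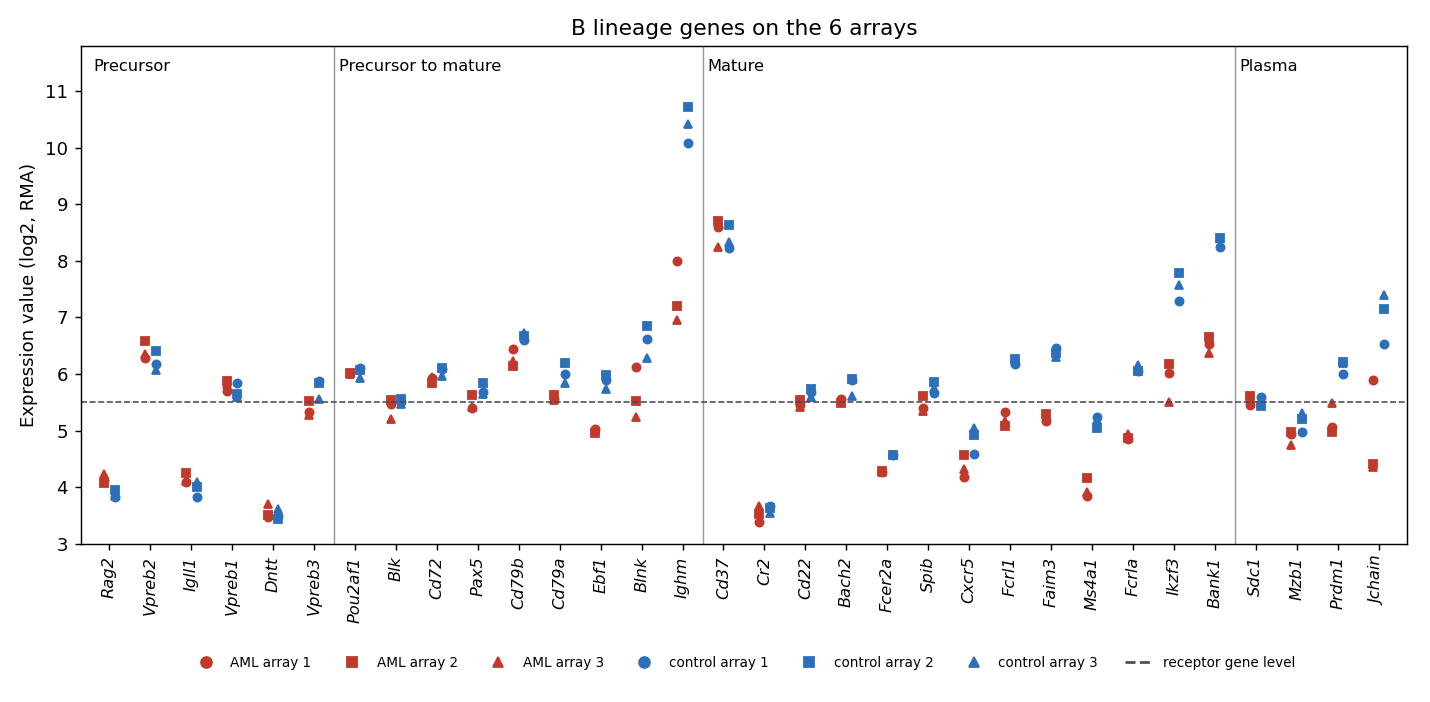
Deposited log2 expression value of each of the 32 measured B lineage genes on the 3 AML arrays (red) and the 3 control arrays (blue), grouped by stage, with a dashed line at the receptor level of 5.51. The Ighm values span 6.96 to 8.01 on AML arrays and 10.09 to 10.71 on control arrays. Differences between group means of the precursor genes lie between -0.38 and +0.27.

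The median difference was +0.14 over the precursor genes, -0.39 over the genes used from precursor to mature cell, -0.49 over the mature genes and -0.62 over the plasma cell genes, beside +0.11 over all genes. When the genes used throughout were counted with the precursors, the median of that combined stage was -0.15. The mature median was the value of Cxcr5, which lay below the receptor level on all arrays. The plasma cell median lay between Prdm1 (-0.963) and Mzb1 (-0.279), and the precursor median between Vpreb1 (+0.105) and Igll1 (+0.184). Mzb1 and Igll1 were below that level on all arrays as well. The difference between stages was not tested.

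**Figure D2:**
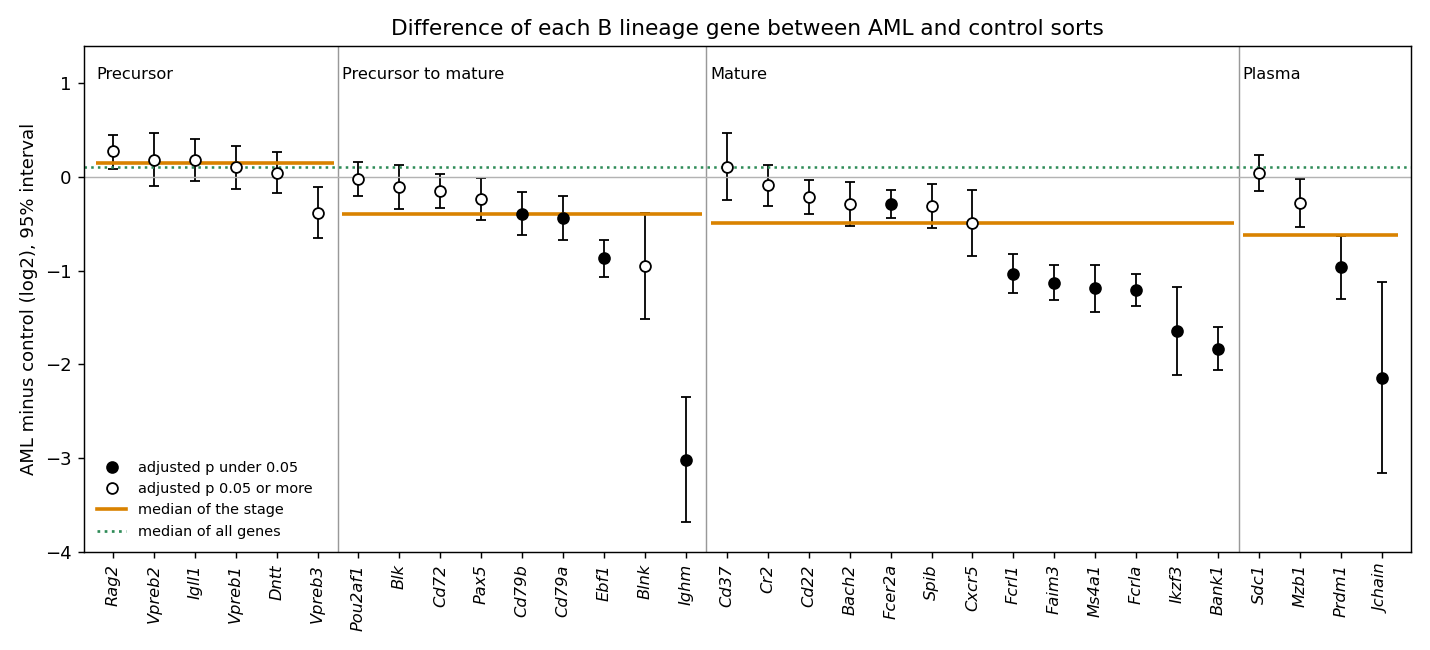
AML minus control on the log2 scale for each gene with limma's 95% interval, grouped by stage; filled circles are called genes, orange bars are stage medians and the dotted line is the median of all genes at +0.11. All 6 precursor genes are open circles, and the called genes reach from -0.29 for Fcer2a to -3.02 for Ighm.

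The surrogate light chain is built from VPREB and IGLL1, which stand in for the light chain in precursors. Vpreb1 stood at 5.69, 5.88 and 5.82 on AML arrays 1, 2 and 3 and at 5.85, 5.65 and 5.59 on control arrays 1, 2 and 3. Its groups overlapped (difference +0.10, 95% interval -0.12 to 0.33, adjusted p = 0.452). Vpreb2 is a close paralog of Vpreb1, and cross-hybridisation between the pair cannot be told from either gene's own signal. Its difference was +0.19 (95% interval -0.09 to 0.46). Igll1 read 4.10, 4.25 and 4.11 in AML and 3.82, 3.999 and 4.08 in control, a difference of +0.18 (95% interval -0.04 to 0.41, adjusted p = 0.210). All of its values lay below the receptor level, so they were not shown to be above background.

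Rag2, a subunit of the recombinase, stood at 4.13, 4.07 and 4.23 in AML and at 3.83, 3.95 and 3.84 in control, also below the receptor level. Its difference of +0.27 was not called (adjusted p = 0.065), although it passed with array weights (adjusted p = 0.0475). The row that Rag1 shares with B230118H07Rik read 4.70, 4.85 and 4.70 in AML and 4.59, 4.40 and 4.56 in control, and it was not called in a fit over all rows (adjusted p = 0.182). Dntt, the polymerase that adds untemplated bases at the joins of immunoglobulin genes, lay between 3.43 and 3.70 on the 6 arrays. Vpreb3, which binds nascent immunoglobulin chains, differed from the other precursor genes in direction. It stood at 5.33, 5.53 and 5.27 in AML and at 5.88, 5.84 and 5.55 in control, with no overlap and a difference of -0.38 (adjusted p = 0.0768). It passed under median centring (adjusted p = 0.031), renewed quantile normalization, cyclic loess and array weights (adjusted p between 0.0298 and 0.0373).

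Among the lineage's transcription factors, Ebf1, which commits progenitors to the B lineage, was called. Its values were 5.02, 4.96 and 5.01 on AML arrays 1 to 3 and 5.89, 5.98 and 5.74 on control arrays 1 to 3. Every AML value lay below the receptor level and every control value above it, and the groups were 0.72 apart at their nearest. The difference was -0.87 (SE 0.08, adjusted p = 0.0018), a fall of at least 1.28-fold. Pax5, the factor that maintains B cell identity, read 5.41, 5.64 and 5.42 in AML and 5.67, 5.85 and 5.65 in control. Its groups were next to each other without overlap, and the difference of -0.24 was not called (adjusted p = 0.142).

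Ikzf3, which encodes the zinc finger factor Aiolos of later B cell stages, showed a larger change. It stood at 6.01, 6.18 and 5.51 in AML and at 7.29, 7.79 and 7.57 in control. This was a fall of at least 3.13-fold (difference -1.65, SE 0.20, adjusted p = 0.00412), with AML array 3 the lowest and just below the receptor level. Spib, an ETS factor of mature B cells, and Bach2, a repressor that holds off plasma cell fate, had differences of -0.31 and -0.29 without overlap of the groups and were not called (adjusted p 0.0893 and 0.0992). Both passed with array weights and under median centring (adjusted p between 0.031 and 0.048). Pou2af1, the octamer coactivator, lay between 5.92 and 6.10 on all arrays, and its groups overlapped.

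The genes of the B cell receptor moved by very different amounts. Ighm, the immunoglobulin mu heavy chain gene, read 8.01, 7.20 and 6.96 on the AML arrays and 10.09, 10.71 and 10.42 on the control arrays. The nearest AML and control values were 2.08 apart, and the fall was 8.10-fold (difference -3.02, 95% interval -3.68 to -2.35, adjusted p = 0.0017). Another 4 rows name Ighm beside an immunoglobulin variable or gamma gene, and 0 of them were called in the fit over all rows (differences between -0.15 and +0.26).

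Cd79a and Cd79b encode the chains that signal for membrane immunoglobulin. Cd79a stood at 5.56, 5.62 and 5.55 in AML and at 5.997, 6.19 and 5.85 in control, a 1.35-fold fall (difference -0.43, SE 0.10, adjusted p = 0.0378). Cd79b stood at 6.45, 6.15 and 6.22 in AML and at 6.60, 6.67 and 6.73 in control, a 1.31-fold fall (difference -0.39, SE 0.10, adjusted p = 0.0483). Neither gene's groups overlapped, but the margins were small. The call of Cd79a was lost without AML array 1, 2 or 3 or control array 1 or 2 (adjusted p 0.0596 to 0.119), and that of Cd79b without AML array 2 or 3 or any control array (adjusted p 0.0706 to 0.157).

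Blnk, the adaptor that links the receptor to calcium signalling and is known from macrophages as well, read 6.13, 5.52 and 5.24 in AML and 6.62, 6.84 and 6.28 in control. AML array 1 came close to the lowest control array, and the difference of -0.95 (SE 0.24) narrowly missed the threshold (adjusted p = 0.0505). It passed in 7 of 15 alternatives, among them leaving out AML array 1 (adjusted p = 0.0203). The Src family kinase gene Blk had a difference of -0.11 (95% interval -0.34 to 0.13), and Cd72, an inhibitory receptor, one of -0.15 (95% interval -0.33 to 0.03). Neither was called.

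Bank1, a scaffold protein of B cell receptor signalling, showed the largest change among the mature genes. It stood at 6.53, 6.66 and 6.37 in AML and at 8.25, 8.40 and 8.41 in control, all above the receptor level. The groups were 1.59 apart, and the fall was 3.57-fold (difference -1.84, SE 0.10, adjusted p = 3.49e-04).

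A group of Fc receptor relatives fell with it. Fcrla, an intracellular protein that binds immunoglobulin, read 4.86, 4.87 and 4.94 in AML and 6.05, 6.06 and 6.17 in control, a difference of -1.21 (adjusted p = 4.29e-04) and a fall of at least 1.495-fold. Fcrl1, a surface coreceptor, read 5.34, 5.08 and 5.17 in AML and 6.17, 6.27 and 6.25 in control, a difference of -1.03 (adjusted p = 0.0013) and a fall of at least 1.64-fold. Faim3, the Fc receptor for immunoglobulin M, read 5.16, 5.29 and 5.30 in AML and 6.46, 6.37 and 6.30 in control, a difference of -1.13 (adjusted p = 6.44e-04) and a fall of at least 1.82-fold. In these 3 genes every AML array was below the receptor level and every control array above it, and the spread within a group was a small part of the gap between the groups.

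Ms4a1, the gene of the B cell surface protein CD20, was called from values near background. It stood at 3.84, 4.16 and 3.91 in AML and at 5.24, 5.04 and 5.19 in control, a difference of -1.19 (SE 0.11, adjusted p = 0.00152). All of its values were below the receptor level, so that no fold is given. Fcer2a, the low-affinity IgE receptor CD23, also stayed below that level. It read 4.28 on each of the AML arrays and 4.57, 4.58 and 4.57 on the control arrays, and its difference of -0.29 was called (adjusted p = 0.032). The call of Fcer2a was lost without AML array 1 or 2 or any control array (adjusted p 0.0647 to 0.133).

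The other mature genes were not called. Cd22, an inhibitory coreceptor, stood at 5.45, 5.54 and 5.41 in AML and at 5.69, 5.74 and 5.60 in control (difference -0.21, adjusted p = 0.113), and it passed with array weights and under the 3 other scalings (adjusted p 0.0318 to 0.0458). Cxcr5, the receptor that guides B cells into follicles, had a difference of -0.49 (adjusted p = 0.0762) from values below the receptor level, and it passed without control array 1, with array weights and under cyclic loess (adjusted p 0.0223 to 0.0491). Cr2, the complement receptor CD21, lay between 3.38 and 3.67 with overlapping groups. Cd37, a tetraspanin found on leukocytes in general, stood at 8.60, 8.70 and 8.25 in AML and at 8.23, 8.64 and 8.34 in control, with overlapping groups and a difference of +0.11 (95% interval -0.25 to 0.47).

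Of the plasma cell genes, Jchain and Prdm1 were called, while Mzb1 and Sdc1, which lay below or around the receptor level, were not. Jchain, which joins the units of secreted immunoglobulin M and A, read 5.90, 4.41 and 4.35 in AML and 6.54, 7.15 and 7.40 in control. AML array 1 stood far above the other AML arrays and 0.64 below the lowest control array. The difference was -2.14 (SE 0.43, adjusted p = 0.0264) and the fall at least 2.62-fold. Leaving out AML array 2 ended the call (adjusted p = 0.078), as did leaving out control array 2 or 3 (adjusted p 0.102 and 0.104).

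Prdm1, which encodes the plasma cell regulator Blimp-1 and is known from T cells and macrophages as well, read 5.07, 4.97 and 5.48 in AML and 6.01, 6.21 and 6.20 in control. The difference was -0.96 (SE 0.14, adjusted p = 0.00929), a fall of at least 1.54-fold, and its call was lost without control array 2 (adjusted p = 0.0503). Mzb1, a chaperone of immunoglobulin assembly, stood at 4.93, 4.98 and 4.75 in AML and at 4.98, 5.20 and 5.31 in control, all below the receptor level (difference -0.28, adjusted p = 0.134). Sdc1, the gene of syndecan 1, a plasma cell surface marker, lay between 5.43 and 5.62 on all arrays, with overlapping groups. Its means, 5.543 in AML and 5.501 in control, were around the receptor level, so a fall could not be seen.

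**Figure D3:**
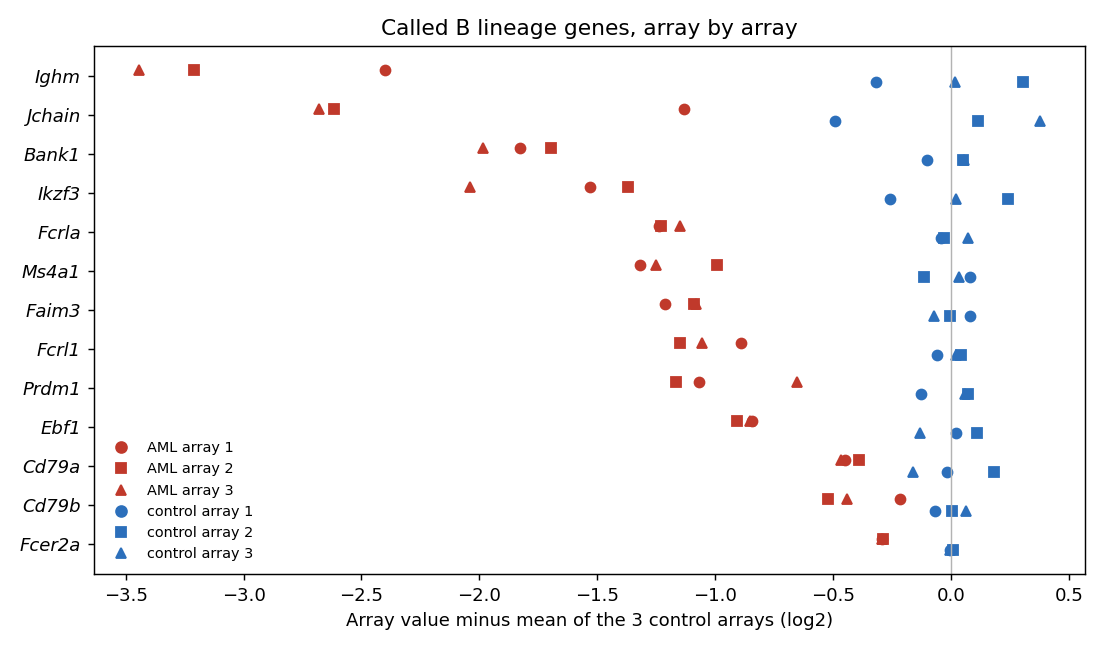
Value of each called gene on each array minus the mean of the 3 control arrays (log2), with AML arrays in red and control arrays in blue. AML array 1 stands apart from the other AML arrays in Jchain (-1.13 against -2.62 and -2.68) and in Ighm (-2.40 against -3.21 and -3.45), while Ebf1 and Fcrla lie close together on all 3.

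The AML arrays did not keep 1 order over the called genes. Of the 13, the highest AML value was on array 1 in 5 genes, on array 2 in 5 and on array 3 in 3. Array 1 was the highest in Ighm, Jchain, Cd79b, Fcrl1 and Ebf1. Without AML array 1, 12 members were called lower, 11 of them among the 13.

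In arrays of sorted bulk RNA, fewer cells of a type and less RNA per cell cannot be told apart. Signal summed over the 32 genes on the linear scale was 1622 to 1937 in AML and 3355 to 4259 in control. Without Ighm it was 1497 to 1702 in AML and 2266 to 2581 in control. Background is part of these sums. Of the 32 genes, 13 had a mean above the receptor level in AML and 23 in control. Markers of other cell types moved with these genes, and their part in the result was not tested. Of 17 monocyte and macrophage markers, 14 fell and 0 rose (median difference -1.13, summed signal 6465 to 8816 in AML and 9489 to 10639 in control). Of its 2 brightest, Ly6c2 had a difference of +0.32 and Cd68 one of -0.79, neither called. Ly6c2 alone supplied a large part of that summed signal in both groups. Of 14 neutrophil and precursor markers, 9 fell and 1 rose (median -1.09, summed signal 11892 to 13547 against 25176 to 29873), and the 2 brightest, Ngp and Retnlg, had differences of -1.11 and -1.06. The primary granule genes of that list had differences above 0: Ctsg rose (+0.95), and Prtn3, Elane and Mpo had differences of +0.39, +0.33 and +0.05 that were not called.

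Lymphoid and plasmacytoid markers gave smaller counts. Of 10 plasmacytoid dendritic cell markers, 2 fell and 0 rose (median -0.07, summed signal 611 to 664 against 709 to 805), Siglech, the defining lectin, among them (difference -0.65). The 2 brightest, Bst2 and Smim5, were not called. Of 15 T and NK cell markers, 1 fell and 1 rose (median +0.09, summed signal 866 to 1053 against 893 to 987). In 11 of the 15 genes, Cd3d, Cd3e and Cd3g of the T cell receptor complex among them, no array was above the receptor level. The 2 brightest of that list, Nkg7 and Cd5, were not called, and Nkg7 alone supplied a large part of the list's summed signal. Megakaryocyte markers summed to 14004 to 19491 in AML and 14395 to 18837 in control.

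**Figure D4:**
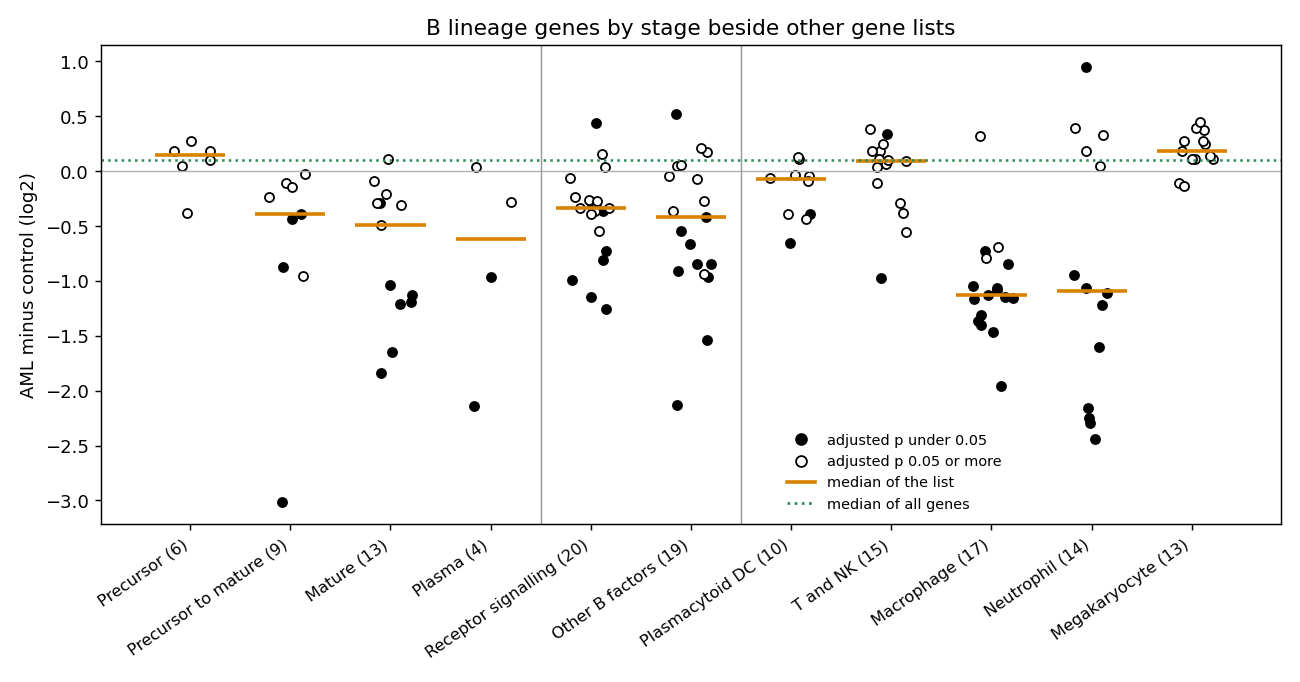
AML minus control (log2) of every measured gene of the B lineage stages, of 2 further B lineage lists and of 5 marker lists of other cell types, with list medians as orange bars, the median of all genes as a dotted line and the number of genes in brackets. The medians of the macrophage and neutrophil lists, -1.13 and -1.09, lie below those of the B lineage stages, and that of the megakaryocyte list, +0.18, above 0.

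Other genes of the B lineage were counted in 2 further lists. Many of them also act in myeloid cells or megakaryocytes. Of 20 genes of B cell receptor signalling beyond the members, 7 fell and 1 rose (median difference -0.33). Ptprc, the phosphatase CD45 of leukocytes, showed a difference of -1.26, Malt1, of the complex that links the receptor to NF-kappaB, one of -1.15, Pik3ap1, an adaptor for PI3 kinase, one of -0.99 and the proximal kinase Syk one of -0.81. Btk, the kinase downstream of Syk, was the gene called higher (+0.44, adjusted p = 0.0451), and this call was lost under median centring and without AML array 1, AML array 3 or any control array. Leaving out control array 2 or 3 left 4 falls in either case.

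Of 19 further transcription factors and receptors of the lineage, 9 fell and 1 rose (median -0.42). Il7r, the receptor for the interleukin that precursors need, stood at 5.45, 4.97 and 5.57 in AML and at 7.43, 7.44 and 7.52 in control, a difference of -2.13 (SE 0.15, adjusted p = 7.04e-04) with the groups 1.86 apart. Since 1 of its 3 AML arrays was above the receptor level, the fall is given as at least 3.81-fold. Foxo1, a factor that induces the recombinase genes, showed a difference of -1.54, from 6.87 ± 0.22 to 5.33 ± 0.29, a fall of at least 2.53-fold. Irf4, a factor of the plasma cell transition, had a difference of -0.97 (at least 1.79-fold), the surface glycoprotein gene Cd24a one of -0.91 and the costimulatory receptor gene Cd40 one of -0.84. All 4 were called (adjusted p 0.00279 to 0.00662). Xbp1, which expands the secretory apparatus of plasma cells, read 8.58, 8.46 and 8.08 in AML and 8.31, 8.47 and 8.45 in control, with overlapping groups. Erg, an ETS factor of stem cells and megakaryocytes, was the gene called higher (+0.53, adjusted p = 0.0215), and this call was lost under median centring and without AML array 1, AML array 2 or any control array. The falls numbered 6 without control array 2 and 6 without control array 3.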

How the data were processed

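Total RNA of 3 AML and 3 control sorts was labelled as biotinylated cDNA from 250 ng and hybridised to an Affymetrix array, per the labels' protocols. The authors deposited log2 values from RMA, per the submitters' processing notes; version and genome build are not given in the sources used here. RMA gives all arrays a like distribution, which hides shifts common to most genes.

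Of 72688 rows, 30604 named 1 gene in the platform annotation. Symbols were updated through RefSeq (GRCm38.p6 table, names only), which left 30063 genes. Values were tested as deposited, without a filter, with limma (lmFit, eBayes) across all genes and Benjamini-Hochberg adjustment, two-sided. The fit was tested on simulated data. Members, stages and lists were chosen with earlier results of these data known. Every member is named; called genes and 13 anchor genes get each array's value; of other lists, the 4 largest called differences with Il7r, Irf4, Xbp1 and Cd40, or the 2 brightest markers. Other genes named (Btk, Erg, Siglech, Cd3d, Cd3e, Cd3g, Ctsg, Prtn3, Elane, Mpo) were chosen after their values were seen. Alternatives were a replicate block, trend, array weights, 3 scalings, 2 level filters, mean rows, each array left out and a 1.5-fold minimum. The number of arrays, 3 per group, limits precision. R 4.3.3, limma 3.58.1, Python 3.11.15 and matplotlib 3.10.9 were used.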

Additional observations from a re-analysis of the deposited data

How the results depend on the processing

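The 13 calls all held with a trend, array weights, mean rows and the 3 scalings. Of them, 8 (Ighm, Ebf1, Bank1, Ikzf3, Fcrla, Fcrl1, Faim3 and Ms4a1) held in every alternative that kept the gene. Level filters dropped Ms4a1, Ebf1 and Fcrla, which were kept in 13, 14 and 14 of the 15 alternatives. Leaving out single arrays gave 8 to 12 members lower, 2 to 4 of the genes used throughout, 0 to 2 plasma cell genes, 4 to 6 receptor signalling genes lower and 0 to 1 higher, 0 to 1 of the other factors higher, and 782 to 1967 of all genes lower and 185 to 1639 higher (both lowest without control array 2). Correlations of deviations from the group means were -0.36, 0.14 and -0.29 for same-numbered arrays and -0.28 to 0.43 for other pairs. Deviations within a group are bound to each other, so these correlations cannot show whether replicate numbers pair the arrays. With the replicate block, 9 members were called, 2 of the genes used throughout, 1 plasma cell gene, 3 receptor signalling genes lower and 0 higher, 0 other factors higher, and 861 of all genes lower and 206 higher. Array weights gave 1 precursor gene lower (Vpreb3) and 1 higher (Rag2, the 1 member called higher), 11 mature genes, 11 receptor signalling genes, 2 other factors higher, and 3014 of all genes lower and 4839 higher. Quantile normalization, median centring and cyclic loess each called 1 precursor gene lower, Vpreb3. Members called lower numbered 16, 18 and 18 under these scalings and 19 with array weights. Of all genes, 2100, 2712 and 2367 were called lower under the same scalings. Without genes at or below the receptor level, 4 of 8 mature genes were called. A 1.5-fold minimum on the deposited difference kept 2 of the genes used throughout, Ighm and Ebf1. The lower bound for Ebf1, 1.28-fold, is under that minimum. Median centring gave 0 receptor signalling genes and 0 other factors higher and 505 of all genes higher.

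Median differences under median centring were -0.42 (members), 0.024 (precursor), -0.612 (mature), -0.742 (plasma) and -0.014 (all genes). Under quantile normalization they were 0.022 (precursor), -0.643 (mature) and 0.011 (all genes), and under cyclic loess 0.032, -0.643 and 0.011, with -0.726 for plasma cell genes. Without single arrays the mature median ran from -0.623 to -0.393. With the genes used throughout, the precursor median was -0.146. Small differences of genes not called changed sign: Vpreb1 to -0.016 and Cd37 to -0.008 under centring, Dntt to -0.121, -0.074 and -0.097 under quantile normalization, centring and loess (-0.025 to 0.095 without single arrays), Sdc1 to -0.049, -0.078 and -0.049, Cr2 to 0.028 with mean rows, and Pou2af1 (-0.078 to 0.012 without single arrays). The cause was not tested. Signal near background limits Ms4a1, Fcer2a, Cxcr5, Mzb1, Igll1, Rag2, Dntt and Cr2. Of other genes not called, Vpreb3, Pax5, Blk, Cd22 and Spib had AML means below the receptor level, and Sdc1 a control mean below it. Their differences are limited in the same way.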
